A study of Mus musculus with 2 samples.

Results

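The miRNAs described are mmu-miR-10a-5p, mmu-miR-10b-5p, mmu-miR-196a-5p and mmu-miR-196b-5p (the prefix for mouse is left out hereafter), the 5p arms of miRNA genes in the Hox clusters. They were chosen by name, and all 4 were found among the 1881 mouse miRNAs of the array. Their levels were measured in LSKs (lineage-negative, Sca1-positive and c-Kit-positive BM cells, the fraction with hematopoietic stem cells and early progenitors) of Scl/tTA-BCR/ABL (BA) mice of the C57BL/6 strain. The mice carry a tet-off transgene, so that doxycycline in the drinking water (20 mg/L) keeps the BCR/ABL fusion gene of chronic myelogenous leukemia (CML) off. The study describes the model as specific to hematopoietic stem and progenitor cells. LSKs of 3 mice were pooled for each of week-0 (0W_LSK) and week-3 (3W_LSK) of doxycycline withdrawal, with 1 Agilent array per pool. The age of the mice is not given in the sources used here. Both pools carried the transgenes, and mice without BA were not analysed here, so that BA expression, doxycycline withdrawal, time and the single pools cannot be told apart.

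Hox genes encode homeodomain transcription factors that set position along the body axis, and several of them, such as Hoxa9 and Hoxb4, are known for sustaining hematopoietic stem cells. The miR-10 and miR-196 genes lie between the Hox genes and are often transcribed with their neighbours. Like other miRNAs, they pair through the seed, the bases near the 5′ end, with mRNAs that they repress. Hoxb8 mRNA, for example, is cleaved under the direction of miR-196 in mouse embryos.

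The mature sequences are shown because the paralogs within each family are nearly alike, which decides how far their probes can tell them apart. They are from RefSeq (GRCm38.p6), which held all 4, and the capitals mark the seed (bases 2 to 8).
miR-10a-5p: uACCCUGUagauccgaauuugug
miR-10b-5p: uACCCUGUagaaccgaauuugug
miR-196a-5p: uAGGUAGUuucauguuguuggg
miR-196b-5p: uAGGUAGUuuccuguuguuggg
The miR-10 paralogs shared 22 of 23 bases and the seed, and counted from the 5′ end of miR-10a-5p the difference to miR-10b-5p was U12A. The miR-196 paralogs shared 21 of 22 bases and the seed, with A12C from miR-196a-5p to miR-196b-5p. On GRCm38.p6, miR-10a-5p is at chr11:96317186-96317208 (plus strand), between Hoxb5 and Hoxb4 and within the span of the Hoxb3 gene. miR-10b-5p is at chr2:74726074-74726096 (plus strand), within the spans of Hoxd3 and Hoxd4. miR-196b-5p is at chr6:52230129-52230150 (minus strand), between Hoxa9 and Hoxa10. miR-196a-5p comes from 2 genes, at chr11:96265187-96265208 between Hoxb13 and Hoxb9 and at chr15:102973365-102973386 between Hoxc10 and Hoxc9 (both plus strand), so that its signal cannot be divided between them.

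The 4 miRNAs were read by 10 probes of different lengths, each complementary to its miRNA from the 3′ end on and, for the 22-base probe of miR-196a-5p, over the whole length. The longest probe of each is shown, with the base that differs from the probe of the paralog in capitals.
miR-10a-5p probe: cacaaattcggAtctacaggg
miR-10b-5p probe: cacaaattcggTtctacaggg
miR-196a-5p probe: cccaacaacaTgaaactaccta
miR-196b-5p probe: cccaacaacaGgaaactacc
Every probe of the 4 miRNAs differed from the paralog by 1 base within its length. Binding of a miRNA to the probes of its paralog was not tested.

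In total, 213 miRNAs were detected on at least 1 array, 178 at week-0 and 193 at week-3, and 158 on both. Detection is the call of the scanner software, which on these arrays equalled a total signal of at least 1 probe above 3 times its error. Both arrays lay on 1 slide. The signals are background-subtracted brightness values in array units, on which the negative control spots had 4.83 ± 3.56 (960 spots, SD) at week-0 compared with 4.50 ± 2.92 (977 spots) at week-3. The blood cell miRNAs miR-142a-3p, miR-142a-5p and miR-223-3p were detected on both arrays, as were 6 of 8 stem and progenitor miRNAs, with the other 2 at week-0 only. Of the stromal and vascular wall markers, 0 of 5 were detected, with summed signals of -12.7 at week-0 and -13.5 at week-3, and miR-143-3p and miR-145a-5p, the defining ones, had signals below 0 on both arrays. Of 5 markers of other tissues, 0 were detected. The erythroid list had 1 detected member of the 3 measured. This was miR-451a, which passed at week-0 alone, and the summed signal of the list went from 46.5 to 3.03. The part of erythroid cells in the results was not tested.

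One paralog of each family gave clear signals in LSKs. miR-10a-5p and miR-196b-5p were detected at both times, miR-10b-5p at week-0 only, and miR-196a-5p at neither. Both miRNAs detected at both times, miR-10a-5p and miR-196b-5p, were dimmer at week-3, with a ratio to week-0 of at most 0.67, the threshold of the study for lower miRNAs. Over all miRNAs detected on both arrays, 26.6% (42 of 158) were lower at this threshold. Over those detected on at least 1 array, 28.6% were lower and 25.8% were higher by at least 1.5-fold. miR-10b-5p passed detection only through week-0, where it was brighter, so it is not counted with them. With 1 array per group there was no replicate check, so no test between week-0 and week-3 was made. Errors are SD or SE over the replicate spots of a probe, which cover technical error within an array only. In such bulk samples fewer cells with a miRNA and less of it per cell cannot be told apart.

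miR-10a-5p, the Hoxb cluster member of its family, was 2.76-fold lower at week-3. Its 21-base probe had a mean signal of 127 ± 9.64 at week-0, compared with 39.8 ± 6.33 at week-3 (SD, 15 spots each), and its 20-base probe had 61.2 ± 5.82 and 20.2 ± 3.29 (15 spots each). For both probes all spots of week-3 lay under all spots of week-0, with a highest spot of 25.1 at week-3 and a lowest of 53.1 at week-0 for the shorter one. The same lack of overlap held for 38.5% of the 270 probes detected on both arrays. Without scaling between arrays the ratios of week-3 to week-0 were 0.314 (SE 0.0143) and 0.331 (SE 0.0161), and the gap between the probes was within their combined error. They were the 6th and 10th lowest of the 270 probes detected on both arrays, whose median ratio was 0.861 and of which 35.6% had a ratio of 0.67 or less and 18.1% of 0.5 or less. After quantile scaling and with both probes summed, the log2 signal went from 7.40 to 5.93. This is a log2 difference of -1.47 (SE 0.05), the 6th lowest of the 158 miRNAs detected on both arrays, whose median was -0.04.

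miR-196b-5p, the Hoxa cluster member, was 2.17-fold lower at week-3. The mean signals of its 20-base probe were 146 ± 9.57 (15 spots) at week-0 and 51.8 ± 2.81 (14 spots) at week-3, and those of its 19-base probe were 67.5 ± 4.26 and 27.6 ± 4.33 (15 spots each). Again the spots of the 2 arrays did not overlap for either probe, which also held for 38.5% of the 270 probes in this direction. The unscaled ratios were 0.354 (SE 0.00789) and 0.409 (SE 0.0179). The shorter probe thus had the higher ratio, and the gap exceeded the errors over spots. After scaling, the log2 signal went from 7.51 to 6.40, with a difference of -1.12 (SE 0.03), the 12th lowest of 158. This is -1.43 without scaling between arrays.

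**Figure D1:**
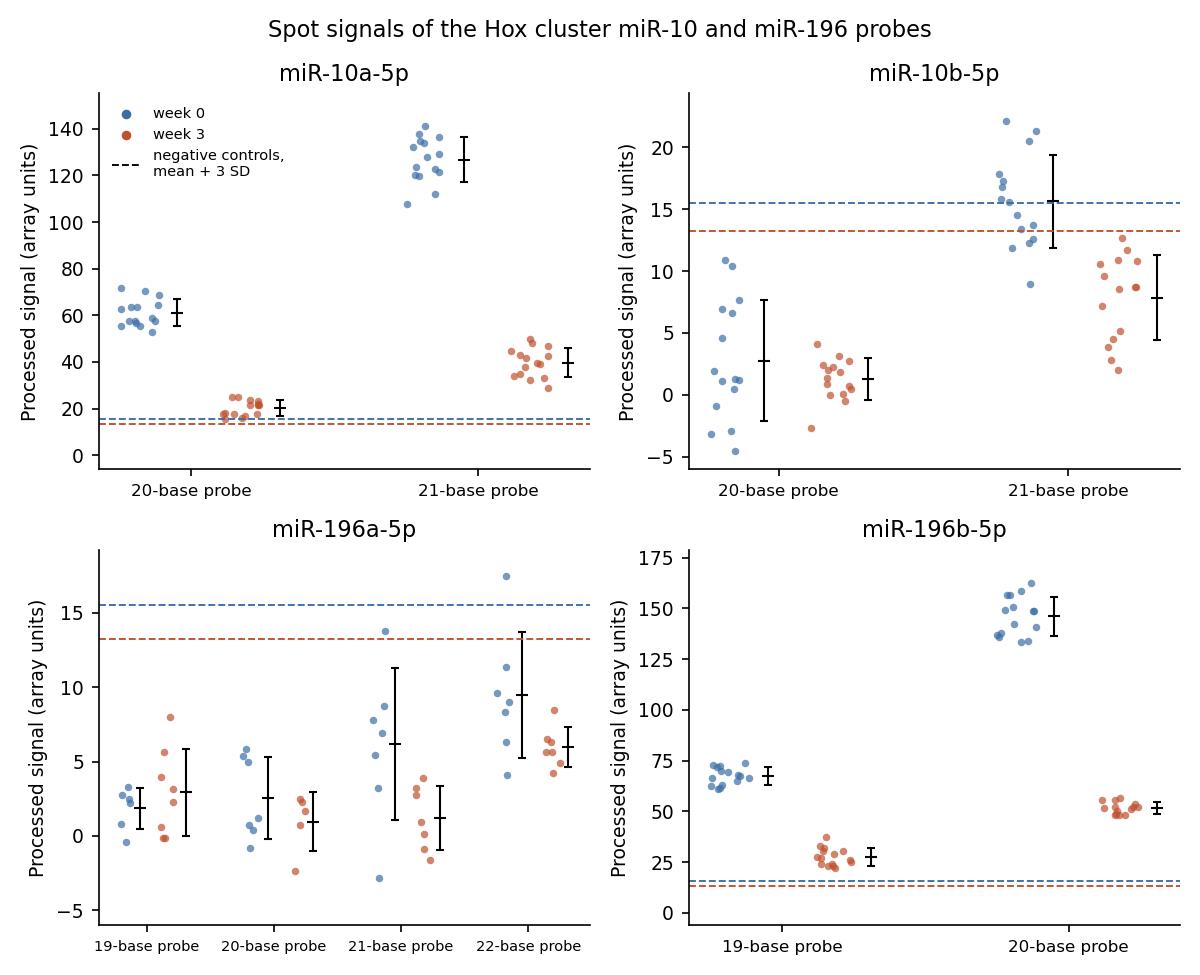
Processed signal (array units, y axis) of every spot of the 10 probes, at week-0 (blue) and week-3 (red), with the mean and SD over spots in black and the mean plus 3 SD of the negative control spots as dashed lines in the colour of the array. The mean signals of miR-10a-5p and miR-196b-5p lay above both lines, and their spots were lower at week-3 without overlap. Such a lack of overlap held for 38.5% of the 270 probes detected on both arrays. The means of miR-10b-5p and miR-196a-5p lay near or below the lines.

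miR-10b-5p, the Hoxd cluster member, was near the limit of detection. Only its 21-base probe passed at week-0, with a total signal of 3.31 times its error, and no spot of either probe was well above background on either array. That probe had 15.6 ± 3.73 at week-0 and 7.85 ± 3.41 at week-3 (15 spots each), and the spots overlapped, from 8.99 to 22.1 at week-0 and from 2.03 to 12.7 at week-3. The total at week-3 was 2.33 times its error, below detection, so no fold is given for the probe. The difference in mean signal between the arrays was 7.78 (SE 1.31 over spots). The 20-base probe had 2.77 ± 4.87 and 1.26 ± 1.68, below the mean of the negative controls, and a ratio was not taken. The scaled log2 difference with both probes was -0.86, and under the other processing settings it ran from -5.00 to -0.07. It sets a dim signal against one below detection and is no measured fold. It was -0.26 in the table of the authors, short of the threshold.

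miR-196a-5p, made from a Hoxb and a Hoxc locus, was below detection on both arrays. The mean signals of its 4 probes, with 5 to 8 spots each, ran from 1.87 to 9.47 at week-0 and from 0.950 to 5.96 at week-3. The 22-base probe was the brightest of them at both times, with a total of 2.07 times its error at week-0 and 1.80 times at week-3. A fold was not computed, since both signals were below the detection limit. That miR-196a-5p is absent from LSKs does not follow from this.

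**Figure D2:**
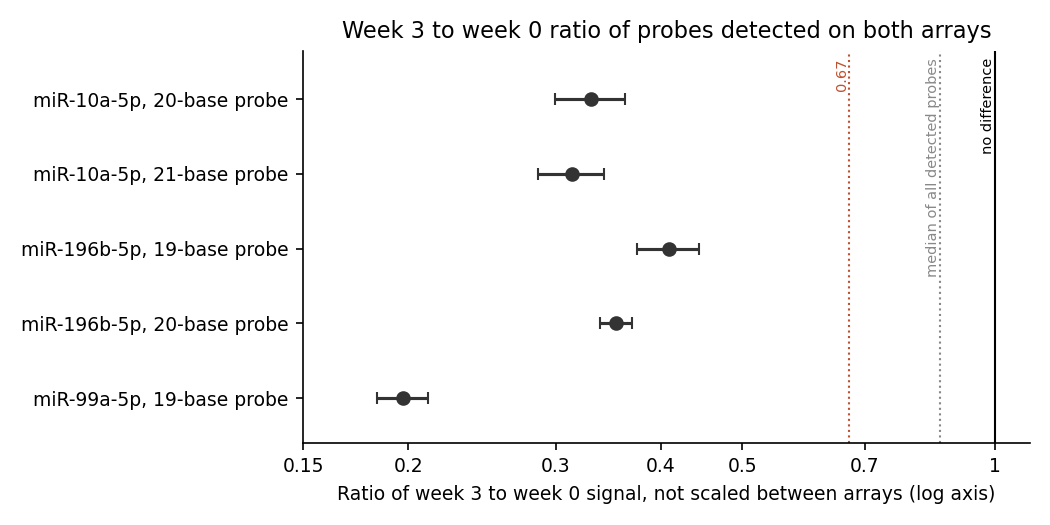
Ratio of the week-3 to the week-0 signal (x axis, log scale, not scaled between arrays) of the probes of miR-10a-5p, miR-196b-5p and miR-99a-5p with a total above 3 times its error on both arrays. Bars are 95% intervals from the SE over spots, and lines mark 0.67, the median of the probes detected on both arrays (0.861) and no difference. The ratios of miR-10a-5p and miR-196b-5p lay between 0.314 and 0.409.

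Between the members detected at both times, the decrease was larger for miR-10a-5p than for miR-196b-5p. Their log2 differences were -0.35 apart after scaling, with an SE of 0.06 over spots that came from the unscaled sums. miR-10a-5p had the lower value under 14 of the 14 other processing settings, although by little in some of them. Without scaling between arrays the differences were -1.65 for miR-10a-5p and -1.43 for miR-196b-5p. With the RMA-like summary (normexp, offset 50) they were -0.60 and -0.56. Whether the gap between the 2 miRNAs exceeds the variation between mice was not tested. In the plane of the scaled signals at both times, miR-196b-5p was the third closest of 157 miRNAs to miR-10a-5p (distance 0.48 on the log2 scale over 2 arrays), after miR-29c-3p (0.38) and miR-30b-5p (0.42). Closest to miR-196b-5p were miR-142a-5p (0.23), miR-126a-3p (0.42) and miR-5119 (0.45). Distances of this kind depend on probe brightness as well as on the level of a miRNA.

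**Figure D3:**
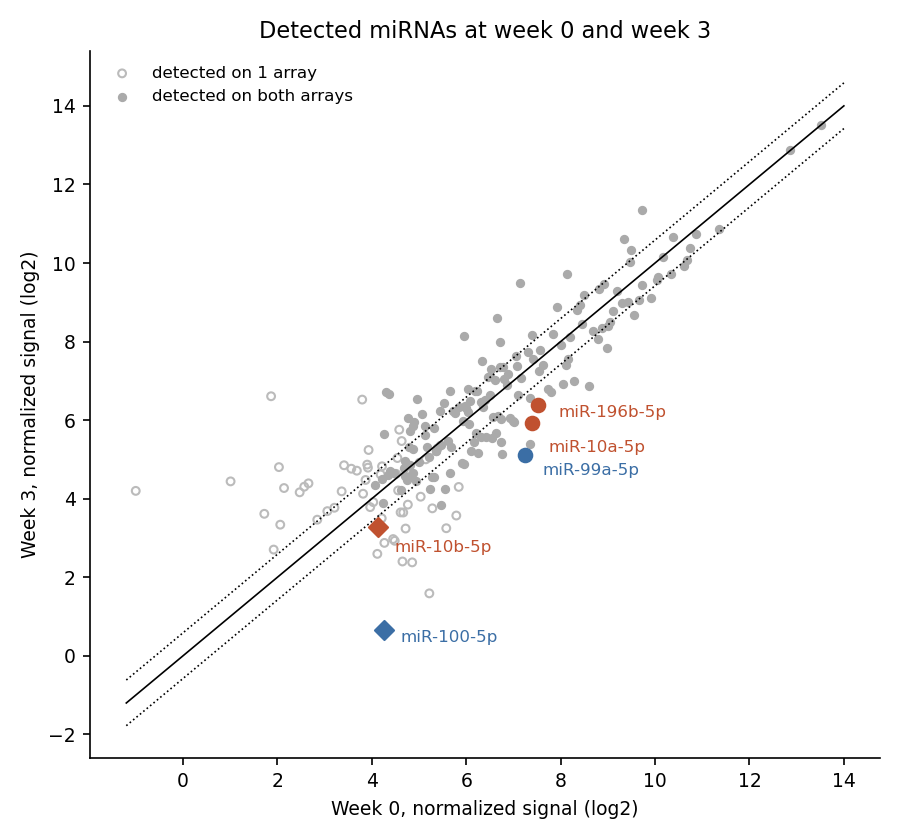
Quantile scaled signal (log2) at week-0 (x axis) and week-3 (y axis) of the 213 detected miRNAs, with filled points for detection on both arrays and open points or diamonds for detection on 1. Red marks the Hox cluster miRNAs and blue their relatives, with equal signals on the solid line and ratios of 1.5 and 0.67 on the dotted lines. miR-10a-5p, miR-196b-5p and miR-99a-5p lay below the lower dotted line. The diamonds are miR-10b-5p and miR-100-5p, whose week-3 signals were below detection.

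Of the other miRNAs of the Hox clusters, 0 of 7 were detected on either array. These were the 3p arms of the same hairpins (miR-10a-3p, miR-10b-3p, miR-196a-1-3p, miR-196a-2-3p and miR-196b-3p) and both arms of miR-615, which lies in the Hoxc cluster. The mean signals of their 24 probes ran from -8.36 to 4.19, and the highest total was 0.936 times its error. For miR-10a and miR-196b only the 5p arm was thus measurable, and their 3p arms gave no second reading of the hairpins.

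The miR-99 and miR-100 family resembles miR-10 over most of its length but has another seed, ACCCGUA in place of ACCCUGU, and is encoded outside the Hox clusters. It is shown because of this likeness, and binding of its members to the miR-10 probes was not tested. Aligned at the 3′ end, miR-10a-5p shared 19 of 22 bases with miR-100-5p and 18 of 22 with miR-99a-5p.
miR-99a-5p: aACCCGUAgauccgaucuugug
miR-100-5p: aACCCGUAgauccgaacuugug
miR-99a-5p was lower at week-3 than at week-0, with 130 ± 6.56 (14 spots) and 25.6 ± 3.26 (15 spots) for its longer probe. The spots of this probe did not overlap, which held in this direction for 38.5% of the 270 probes detected on both arrays. The unscaled ratio of this probe, 0.197 (SE 0.00702), was below those of miR-10a-5p beyond the errors over spots. The 18-base probe had 42.8 ± 5.59 and 9.84 ± 3.07 (15 spots each). At week-3 its total was 2.88 times its error, below detection, so no ratio is given for it. miR-100-5p was detected at week-0 only, with 20.7 ± 3.40 and 3.54 ± 2.95 (15 spots each) for its longer probe, the latter below the mean of the negative controls. miR-99b-5p was not detected. Among 8 stem and progenitor miRNAs, which were listed with earlier results of these data known, 6 were detected on both arrays, and 5 of these were lower at the threshold of 0.67. Over all miRNAs detected on both arrays, 26.6% (42 of 158) were lower at it. The other 2 of the list, miR-125a-5p and miR-146a-5p, passed through week-0 only. Since the list was drawn up in this way, its count is a description.

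**Figure D4:**
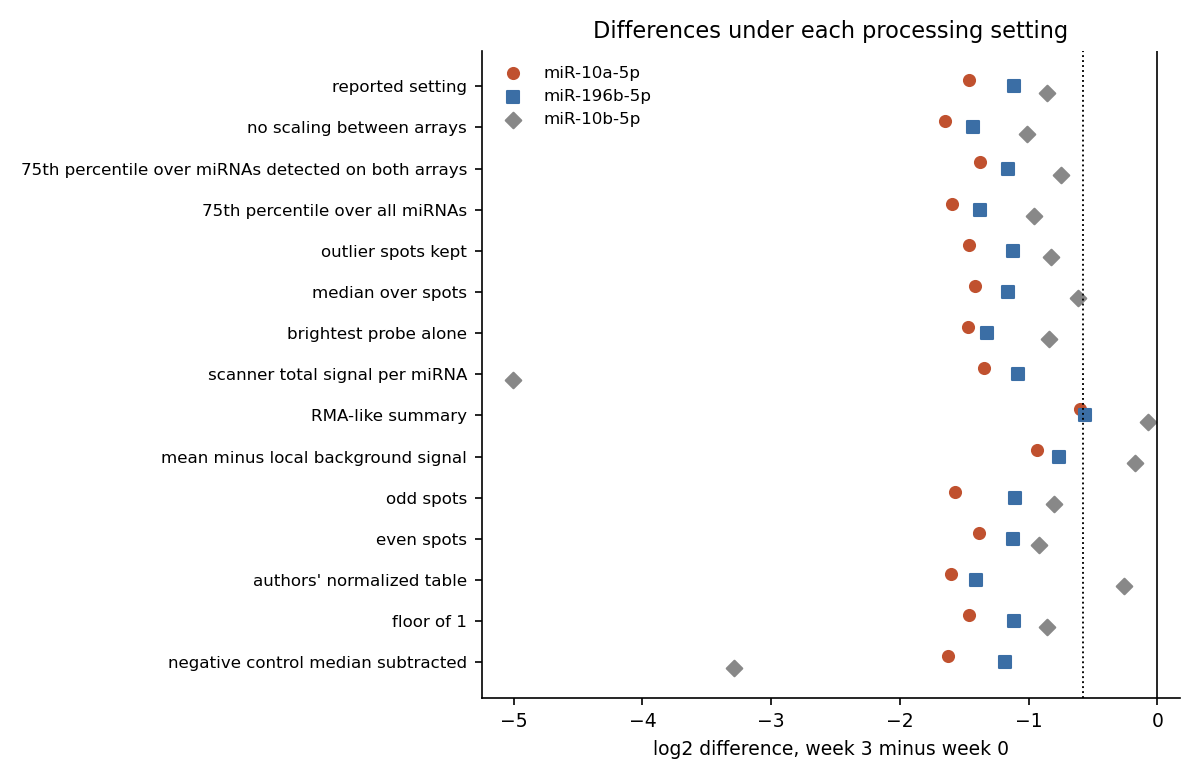
log2 difference (week-3 minus week-0, x axis) of miR-10a-5p, miR-196b-5p and miR-10b-5p under the reported processing and the 14 others (y axis), with the ratio of 0.67 as a dotted line. The differences of miR-10a-5p lay from -1.65 to -0.60 and those of miR-196b-5p from -1.43 to -0.56, whereas those of miR-10b-5p, below detection at week-3, ran from -5.00 to -0.07.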

How the data were processed

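The members and miRNA lists were chosen with earlier results of these data known. The deposited scanner files, extracted by the authors with Feature Extraction 10.7.1.1, hold intensity values per spot with no scaling between arrays. The table deposited by the authors holds log2 signals, quantile normalized with AgiMicroRna per the study's methods. Its background step is not given in the sources used here. It served as an alternative, and its detection flags matched those of the scanner files in 3762 of 3762 values. Its start position matched that of RefSeq GRCm38.p6 for all 4 members, for miR-196a-5p at 1 of its 2 loci (chromosome 15). The header of the scanner files names mm9, and their probe positions were not used.

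Control spots and spots marked as outliers were left out (3 of the members at week-0 and 4 at week-3). No member spot was saturated (0 spots). Processed signals were averaged per probe, summed per miRNA, quantile scaled over 1881 miRNAs and taken to log2 with a floor of 0.5 (Python 3.11.15, numpy 2.4.6, pandas 2.3.3). The steps were tested on simulated data. SE came from the spots by error propagation. Per-probe ratios were taken without scaling and are given where a probe total exceeded 3 times its error on both arrays. The number of arrays limits the precision. Alternatives covered scaling, summary, background (normexp with offset 50, limma 3.58.1), spots, floor, threshold and detection. Besides the members, detected miRNAs of the listed groups and the 3 nearest to each member detected on both arrays were named.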

Additional observations from a re-analysis of the deposited data

How the results depend on the processing

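miR-10a-5p and miR-196b-5p, the members detected on both arrays, stayed below 0 under all 14 alternatives. miR-10a-5p passed 0.67 under 14 and miR-196b-5p under 13. Over the 213 miRNAs detected on at least 1 array, the share lower at this threshold ran from 5.16% to 35.7% over the settings. miR-10b-5p passed detection only through week-0, where it was brighter, so its sign and passes are not counted here. With the RMA-like summary (normexp, offset 50) the differences were -0.60 for miR-10a-5p, -0.56 for miR-196b-5p and -0.073 for miR-10b-5p, and 1 member passed. In all, 11 miRNAs were then lower and 11 higher, against 61 and 55, and the cause was not tested, since this setting changes background and summary together. With the local background in place of the processed one, the differences were -0.93 for miR-10a-5p and -0.76 for miR-196b-5p, with 23 lower and 18 higher in all. For miR-196b-5p the difference was -1.43 without scaling between arrays, -1.37 with the 75th percentile over all miRNAs, -1.32 with the brightest probe and -1.41 in the authors' table. Without scaling the share of higher among called miRNAs was 36.1%, against 47.4%, and the median of miRNAs detected on both arrays was -0.18, against -0.04. For miR-10b-5p the scanner's total signal gave -5.00. At week-0 that total was 11.1 times the sum of its probe totals, and the cause was not tested. Subtracting the negative control median, chosen after seeing the data, gave -3.29 for miR-10b-5p. Detection counts were the same with the mean plus 3 SD of the negative controls as the limit. The values of miR-10b-5p are no measured folds, since it was below detection at week-3, and for miR-196a-5p none was taken. No paired analysis was possible because each group has 1 array.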

Other observations

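After background subtraction the negative control spots kept a median above 0, with 4.58 at week-0 and 4.56 at week-3. Taking this median off every spot, a step chosen after seeing the data, must lower a ratio well below 1, since the medians of both arrays were nearly equal. The unscaled ratios of the bright probes were lowered by this arithmetic. They went from 0.331 to 0.277 and from 0.314 to 0.288 for miR-10a-5p, and from 0.409 to 0.367 and from 0.354 to 0.333 for miR-196b-5p. With the local background in place of the processed one, a planned setting, the same ratios were higher. They were then 0.512 and 0.417 for miR-10a-5p, and 0.554 and 0.441 for miR-196b-5p.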
